A study of Homo sapiens with 8 samples.

Results

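Host genes of microRNAs and small nucleolar RNAs numbered 41 of the 57820 genes in the deposited table of OVCA429 cells with and without knockdown of GRHL2. The members were chosen by symbol alone: SNHG followed by digits, MIR with the ending HG, and GAS5, H19, MEG3, DLEU2, PVT1 and CRNDE. By role they comprised 16 snoRNA host genes (SNHG genes and GAS5), 24 microRNA host genes and CRNDE, for which neither kind of small RNA lay within the RefSeq gene bounds. OVCA429 is an established human ovarian cancer cell line. The control carried a short hairpin RNA against luciferase (shLuc) and the knockdown carried shGRHL2. GRHL2 is a transcription factor that sustains epithelial genes, and both groups grew in the same medium with puromycin. Per the study, the knockdown line had been generated earlier, and 1 hairpin against GRHL2 is named, so an effect of that hairpin other than through GRHL2 cannot be told apart from loss of GRHL2. The labels list 4 samples per group. Values are FPKM, fragments per kilobase of effective transcript length, scaled to the mapped fragments of the sample, from ribosome-depleted total RNA.

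Small nucleolar RNAs (snoRNAs) guide the methylation and pseudouridylation of ribosomal and other RNAs, and in vertebrates nearly all of them are cut from introns of a host transcript. Many non-coding snoRNA hosts start with a pyrimidine tract like that of ribosomal protein mRNAs, and their spliced exons are typically degraded by nonsense-mediated decay. MicroRNA hosts are processed by DROSHA and DGCR8 in the nucleus and DICER1 in the cytoplasm, and the mature microRNA pairs with targets through its seed, bases 2 to 8. The microRNA of MIR205HG, miR-205, is known in epithelial cells as a repressor of ZEB1 and ZEB2 mRNA, which encode drivers of epithelial–mesenchymal transition (EMT). The values compared here are those listed for the host genes. Mature microRNAs are far shorter than the sequenced fragments and were not measured by this library type. Most of the snoRNAs had no value above 0 of their own, and the few that did are given below. Whether host values include fragments of snoRNAs was not tested.

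The 4 samples of a group were treated as sequencing runs of 1 library, because they varied so little. Genes of at least 100 FPKM had a median CV (coefficient of variation, SD over mean) between samples of 2.72% in shLuc and 2.79% in shGRHL2, under the 3% set for this. SDs below are therefore the spread between 4 runs of 1 library, and no comparison has a check between separate cultures or a p-value. Depth, estimated from the steps of low values, was about 38110000 fragments for the shLuc library and 40460000 fragments for the shGRHL2 library. The target itself, GRHL2, gave 31.50, 38.69, 33.35 and 31.98 FPKM in control, against 0.13, 0.15, 1.17 and 0.10 FPKM after knockdown. The shGRHL2 library thus held 1.144% of the control level, or 0.374% without run 3. Of the epithelial markers, PAX8, KRT7, KRT8, KRT18, EPCAM and MUC16 were all present in shLuc, and 4 of 6 were past the 2-fold limit, lower in shGRHL2 (summed over the list, 4069 to 4139 FPKM in shLuc runs and 1653 to 1706 in shGRHL2 runs). PAX8 went the other way, from 69.8 ± 3.6 to 121.9 ± 2.9 FPKM (difference 0.80), and MUC16 was at 0.422 FPKM after knockdown. The leukocyte list summed to 0.92 to 2.23 and 2.55 to 4.2 FPKM, the fibroblast list to 0.79 to 2.24 and 2.48 to 4.55, and the endothelial marker VWF to 0.04 to 0.1 and 0.07 to 0.28. COL1A1 was past the limit, at 1.19 ± 0.70 and 3.63 ± 1.0 FPKM (difference 1.10), and CD68 was just within it, at 0.880 ± 0.31 and 2.74 ± 0.70 FPKM (difference 0.99). PTPRC, VWF, DCN and COL3A1 stayed under 1 FPKM on average, with DCN at 0. The part of such cells in the results was not tested. Mitochondrial ribosomal RNA took 17.0% of fragments in each shLuc run and 25.4% in each shGRHL2 run, a larger share that leaves fewer fragments for other genes. Calls that this scaling changes are marked.

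Some of the microRNAs that lie within the compared hosts are shown first, because microRNAs of different hosts can share or nearly share a seed. RefSeq placed 22 hairpins with an annotated mature form in 12 of these hosts (build GRCh38.p14, PVT1 not used here). They gave 39 mature names with 33 seeds, 6 of which were shared by different microRNAs. Only some of the 39 names are listed below, so not all of the shared seeds appear. The seed is in capitals.
hsa-miR-205-5p (MIR205HG): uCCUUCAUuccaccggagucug
hsa-miR-205-3p (MIR205HG): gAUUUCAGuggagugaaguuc
hsa-miR-4435 (MIR4435-1HG): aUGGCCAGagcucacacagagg
hsa-miR-31-5p (MIR31HG): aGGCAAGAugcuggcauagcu
hsa-miR-137-3p (MIR137HG): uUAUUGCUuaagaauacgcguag
hsa-miR-503-5p (MIR503HG): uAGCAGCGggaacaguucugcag
hsa-miR-15a-5p (DLEU2): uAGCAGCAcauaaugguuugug
hsa-miR-16-5p (DLEU2): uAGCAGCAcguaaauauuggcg
hsa-miR-181a-5p (MIR181A1HG and MIR181A2HG): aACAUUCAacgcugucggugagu
hsa-miR-181b-5p (MIR181A1HG and MIR181A2HG): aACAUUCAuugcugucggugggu
hsa-miR-17-5p (MIR17HG): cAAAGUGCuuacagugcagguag
hsa-miR-20a-5p (MIR17HG): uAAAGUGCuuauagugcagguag
The 5p forms of miR-15a and miR-16 of DLEU2 share a seed (AGCAGCA). The seed of miR-503-5p of MIR503HG (AGCAGCG) is nearly the same and differs from theirs only in its last base. MIR181A1HG and MIR181A2HG, on different chromosomes, both carry miR-181a-5p and miR-181b-5p, which have 1 seed in common, and miR-17 and miR-20a of MIR17HG share another. Neither miR-205 arm shares its seed with another microRNA of these hosts.

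Of the 41 members, 28 had a mean of 1 FPKM or more in at least 1 group and were compared. Compared genes numbered 15019 in the whole table. The difference used throughout is shGRHL2 minus shLuc, taken between means of log2(FPKM + 1) over the runs, which understates the change of genes at low FPKM. A gene was counted past the limit at an absolute difference of 1 or more, which is 2-fold on that scale. By this measure 3 host genes were lower and 0 higher in shGRHL2. The lower ones were MIR205HG, SNHG17 and MIR4435-1HG. Among all compared genes 7.24% were lower and 4.97% higher, and among the 1207 compared long non-coding RNA genes 7.13% and 5.72%. The 3 of 28 host genes past the limit stood beside a background of 12.2% in either direction (12.8% of long non-coding RNA genes). The median difference of the 28 was −0.06, beside −0.10 for all compared genes. The differences of single host genes ran from −5.00 to 0.97.

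**Figure D1:**
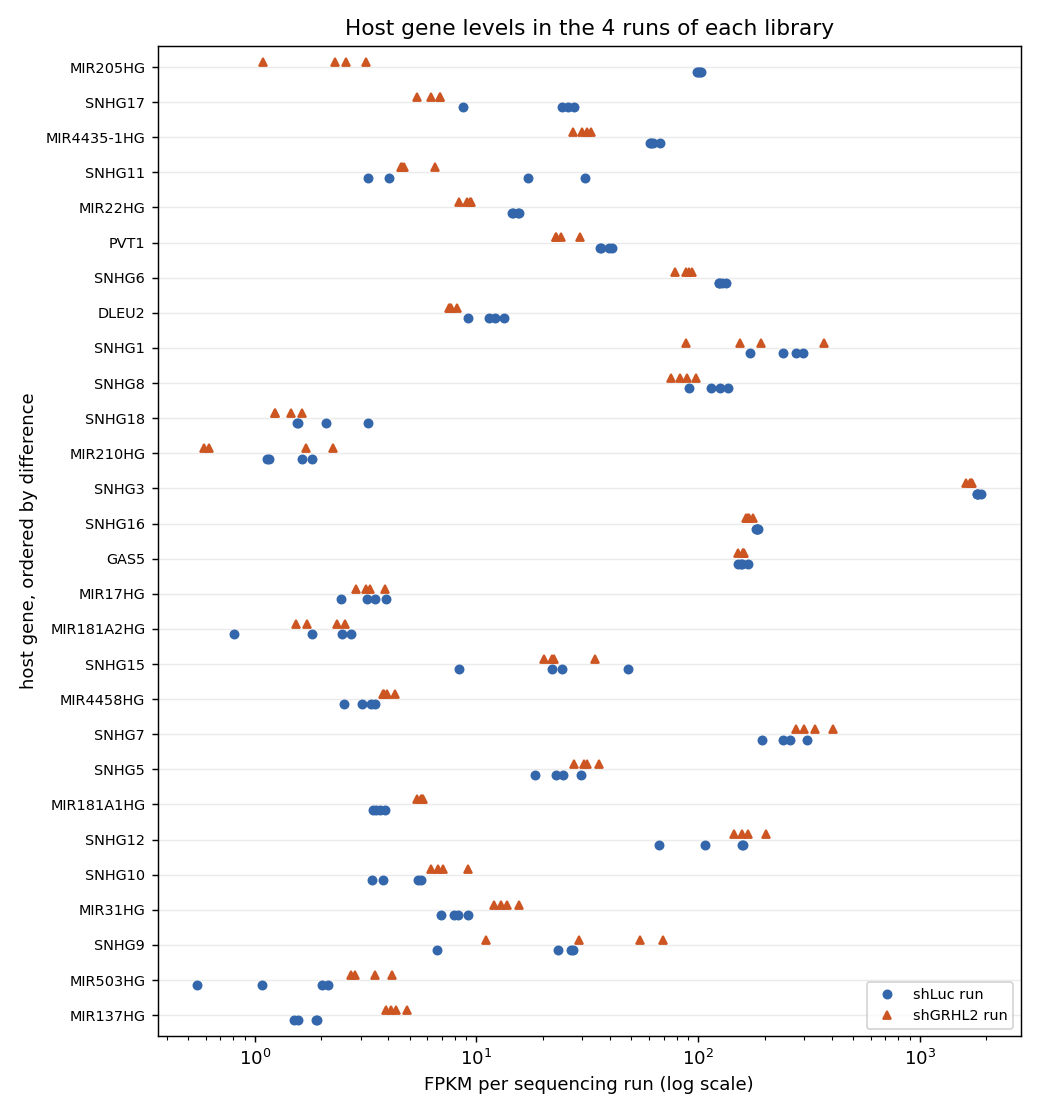
FPKM (log axis) of the 28 compared host genes in each run, with circles for the 4 shLuc runs and triangles for the 4 shGRHL2 runs. MIR205HG is the gene whose runs lie farthest apart, near 100 FPKM in shLuc and between 1.09 and 3.16 in shGRHL2, whereas SNHG1, SNHG11 and SNHG15 scatter widely within a library.

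MIR205HG, the host of miR-205, was the member that differed most. The control runs gave 100.25, 98.83, 102.06 and 103.11 FPKM, and the knockdown runs gave 3.16, 2.57, 2.31 and 1.09 FPKM. Every shGRHL2 run lay far below every shLuc run. The means were 101 ± 1.9 and 2.28 ± 0.87 FPKM (SD, 4 runs), a 44.3-fold lower level, and the difference was −5.00. The ratio of the libraries was 0.0226, with a 95% interval of 0.0192 to 0.0263 from counting about 6967 and 167 fragments (this interval, like those below, covers counting error only). Among the 1207 compared long non-coding RNA genes it ranked 1 from the lowest difference, and among all 15019 compared genes it ranked 12. The gene (ENSG00000230937.5) lies on GRCh37 chromosome 1 from 209602162 to 209606193 (plus strand), and miR-205 lies within its RefSeq bounds. No protein-coding gene of the annotation overlaps it. Leaving out runs and the other settings gave differences of −5.50 to −4.80.

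The 300 bases around the annotated start of MIR205HG are shown because this gene carried the largest difference among the members. They were taken from RefSeq (build GRCh38.p14, chr1:209428570-209428869, plus strand), with the first 50 transcribed bases in capitals.
MIR205HG promoter: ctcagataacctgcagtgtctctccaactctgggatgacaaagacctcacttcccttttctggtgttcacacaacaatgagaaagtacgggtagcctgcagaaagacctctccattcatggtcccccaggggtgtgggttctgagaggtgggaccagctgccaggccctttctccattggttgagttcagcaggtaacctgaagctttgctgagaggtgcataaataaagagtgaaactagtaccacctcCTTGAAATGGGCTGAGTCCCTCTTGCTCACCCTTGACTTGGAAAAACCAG
The Grainyhead-type letters AACNNGTT, searched on both strands with overlaps allowed, were in 0 of 23 promoters of compared host genes whose RefSeq promoter was searched, and in 3.52% of 35116 promoters of the same length. The E-box CAGGTG, which ZEB proteins can bind, was in 7 of 23 (GAS5, MIR210HG, MIR31HG, MIR4458HG, MIR503HG, SNHG1 and SNHG8) and in 20.6% of all promoters. MIR205HG held neither of these exact strings within this window. Other forms of such sites were not searched, so this says nothing of them or of sites outside the window.

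MIR4435-1HG lay just past the limit. It was at 67.0, 62.7, 60.4 and 61.4 FPKM in control runs, and at 32.9, 27.3, 29.8 and 31.5 FPKM in knockdown runs, with no overlap between the libraries. The means were 62.8 ± 2.9 and 30.4 ± 2.4 FPKM, the difference was −1.03, and the ratio was 0.484 with a counting interval of 0.441 to 0.530. The gene (ENSG00000172965.10, chromosome 2, 111763592 to 112280953, minus strand, GRCh37) is named MIR4435-2HG in later annotation and has a near-identical copy on the same chromosome, LINC00152 (now CYTOR), so the division of reads between the copies is uncertain. LINC00152 was lower too, at 69.0 ± 3.9 and 37.4 ± 2.5 FPKM, with a difference of −0.87 that stayed within the limit. The call of MIR4435-1HG was lost with equal medians (−0.93), with mitochondrial ribosomal RNA left out of the scaling (−0.88), without shLuc run 1 (−0.996) and without shGRHL2 run 2 (−0.98). In mouse myeloid cells this gene is known as Morrbid, a repressor of its neighbour Bcl2l11. BCL2L11 was at 3.39 ± 0.71 and 2.15 ± 0.74 FPKM here.

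Within the limit, 5 microRNA hosts were higher in shGRHL2 with no overlap of runs. MIR137HG, host of the neuronal miR-137, was the nearest to the limit. It was at 1.9, 1.56, 1.89 and 1.5 FPKM in control runs, and at 4.87, 4.10, 4.34 and 3.92 FPKM in knockdown runs. The means were 1.71 ± 0.21 and 4.31 ± 0.41 FPKM, a ratio of 2.52 with a counting interval of 2.05 to 3.08, and the difference of 0.97 understates this ratio because of the pseudocount. It passed the limit with a pseudocount of 0.1 (1.28), with equal medians (1.06) and with mitochondrial ribosomal RNA left out of the scaling (1.15), and also without shLuc run 1, without shLuc run 3 or without shGRHL2 run 4. The coding gene DPYD, a pyrimidine-degrading enzyme annotated over the same region on the same strand, was at 18.6 ± 0.35 and 49.7 ± 2.4 FPKM, a difference of 1.37. Whether some MIR137HG fragments derive from DPYD transcripts was not tested.

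MIR503HG, on chromosome X, was at 0.55, 2.02, 2.14 and 1.08 FPKM in control runs, and at 2.72, 4.14, 3.50 and 2.83 FPKM in knockdown runs. The lowest shGRHL2 run lay above the highest shLuc run, but only about 24 and 59 fragments stood behind these values, and the ratio of 2.28 had a counting interval of 1.42 to 3.89. The difference was 0.86, and it passed the limit with a pseudocount of 0.1 (1.28) and with mitochondrial ribosomal RNA left out of the scaling (1.04). MIR31HG, host of miR-31, was at 6.95, 8.24, 7.92 and 9.20 FPKM in control runs, and at 12.05, 13.81, 12.95 and 15.49 FPKM in knockdown runs. Its ratio was 1.68, with a counting interval of 1.40 to 2.02. MIR181A1HG was at 3.62 ± 0.20 and 5.60 ± 0.14 FPKM, a ratio of 1.55 (1.33 to 1.81), whereas MIR181A2HG, which carries the same 5p microRNAs, was at 1.96 ± 0.85 and 2.04 ± 0.48 FPKM with overlapping runs (ratio 1.04, interval 0.655 to 1.66). The difference between these 2 hosts was not tested. MIR4458HG was at 3.10 ± 0.42 and 3.97 ± 0.22 FPKM.

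MIR22HG, PVT1 and DLEU2 were lower within the limit, again with no overlap of runs. MIR22HG, a stress-responsive gene that carries miR-22, was at 14.5, 15.6, 15.4 and 14.6 FPKM in control runs, and at 9.46, 8.33, 9.34 and 9.11 FPKM in knockdown runs (ratio 0.604, interval 0.549 to 0.666). PVT1, the neighbour of MYC, was at 38.2 ± 2.3 and 24.8 ± 3.1 FPKM. DLEU2, first described in a region deleted in chronic lymphocytic leukaemia, was at 11.5 ± 1.8 and 7.74 ± 0.30 FPKM, while TRIM13 on the opposite strand of the same locus was at 9.56 ± 0.12 and 14.5 ± 1.2 FPKM. MIR17HG, the MYC-responsive host of the miR-17 cluster, did not differ beyond its spread, at 3.26 ± 0.61 and 3.31 ± 0.42 FPKM (ratio 1.01, interval 0.857 to 1.203). The hypoxia-linked MIR210HG was at 1.44 ± 0.34 and 1.29 ± 0.82 FPKM with overlapping runs.

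Across the 13 compared microRNA hosts, 5 were higher and 5 lower with no overlap between the libraries, and 3 overlapped. The background was large, since 18.5% of all compared genes were higher and 33.2% lower without overlap, 51.6% in either direction, and runs of 1 library varied little. Among long non-coding RNA genes the shares were 18% higher, 16.4% lower and 34.4% in either direction. The median difference of these 13 was 0.02.

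**Figure D2:**
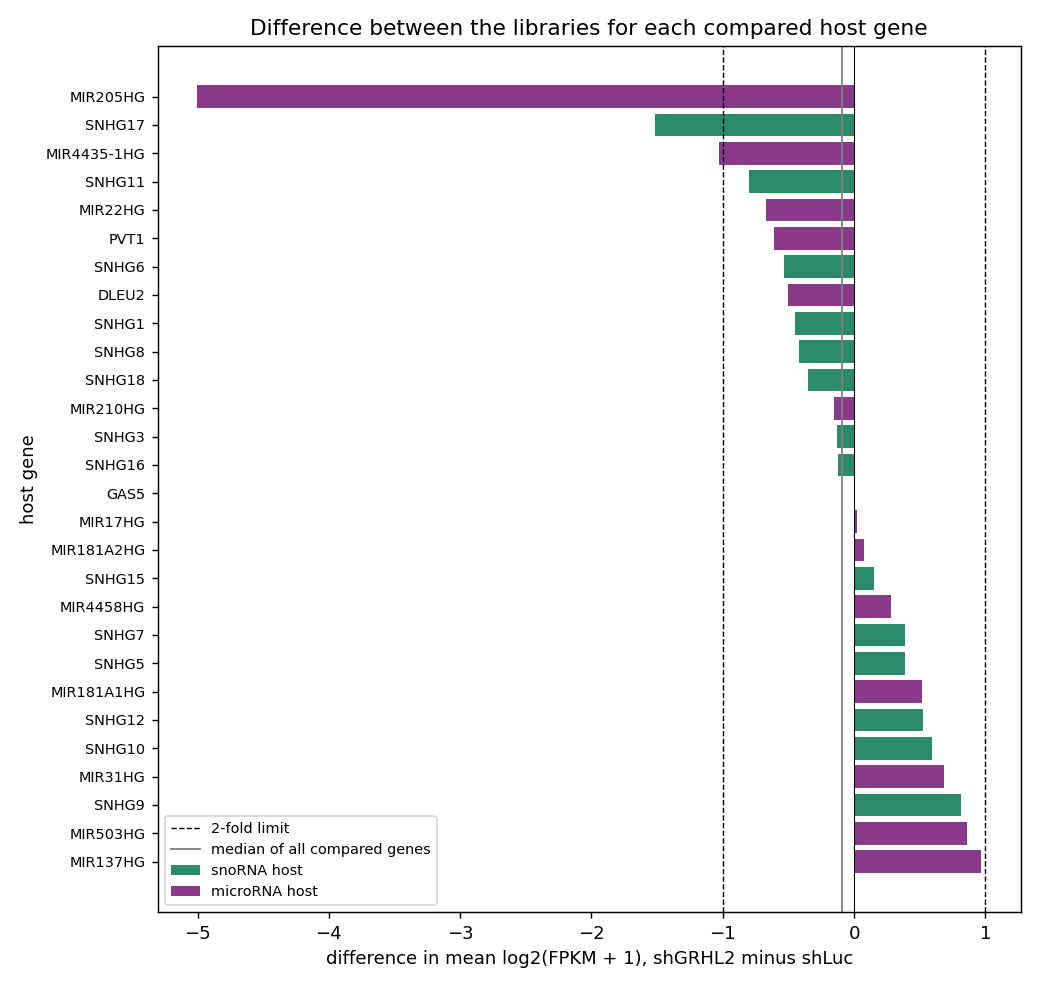
Difference of mean log2(FPKM + 1), shGRHL2 minus shLuc, for each of the 28 compared host genes, coloured by role, with the limit of 1 on either side dashed and the median of all compared genes (−0.10) in grey. MIR205HG at −5.00 stands far from the other members, of which SNHG17 (−1.51) and MIR4435-1HG (−1.03) also pass the limit and MIR137HG (0.97) falls just short of it.

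Of the 15 snoRNA hosts compared, 1 was lower past the limit and 0 higher, 4 were lower and 1 higher without overlap of runs, and 10 overlapped. Of all compared genes, 7.24% were lower and 4.97% higher past the limit, and 33.2% were lower and 18.5% higher without overlap (34.4% of long non-coding RNA genes in either direction). Their median difference was −0.12, beside −0.10 for all compared genes. This median was 0.03 with mitochondrial ribosomal RNA left out of the scaling and −0.23 with TPM.

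SNHG17 was the snoRNA host past the limit. It was at 27.5, 26.0, 8.66 and 24.3 FPKM in control runs, and at 5.38, 6.84, 6.22 and 6.84 FPKM in knockdown runs. Run 3 of shLuc lay below the other control runs and nearly reached the knockdown values, though it was not among the runs flagged for a closer look below. The means were 21.6 ± 8.7 and 6.32 ± 0.69 FPKM, 3.42-fold lower, and 4.10-fold lower without shLuc run 3, with differences of −1.51 and −1.88. The gene (ENSG00000196756.7) lies on GRCh37 chromosome 20 from 37048285 to 37064052 (minus strand), and carries SNORA71A to SNORA71D, guides of pseudouridylation. The table lists these snoRNAs as genes of their own with an effective length of 8.85 bases, so an FPKM there rests on few fragments. SNORA71A was at 279 ± 56 and 347 ± 53 FPKM, about 94 and 124 fragments, and SNORA71D at 106 ± 33 and 130 ± 35 FPKM. SNORA71B and SNORA71C rested on 4 to 11 fragments. The host transcript was lower in shGRHL2, and the listed values of SNORA71A and SNORA71D were not, SNORA71D from about 36 and 47 fragments. These snoRNA values have no counting interval here. The division of reads among SNORA71A to SNORA71D, and whether they follow the host, was not tested.

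SNHG11, which holds SNORA60 and lies next to SNHG17 on chromosome 20, was at 17.2, 31.0, 4.05 and 3.24 FPKM in control runs, and at 6.51, 4.62, 4.71 and 4.58 FPKM in knockdown runs. The shLuc runs fell on both sides of all shGRHL2 runs. The difference of −0.80 rested on shLuc runs 1 and 2. It was −0.27 without run 2, −0.54 without run 1, −1.16 without run 3 and −1.24 without run 4, and no difference between the libraries beyond the spread of runs was shown.

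GAS5, SNHG16 and SNHG3 had ratios of 0.916 to 0.997 between the libraries. GAS5, named for its accumulation in growth arrest and host to a series of box C/D snoRNAs, was at 156, 168, 158 and 152 FPKM in control runs, and at 159, 151, 162 and 160.0 FPKM in knockdown runs, a ratio of 0.997 with a counting interval of 0.953 to 1.04. SNHG16, host of SNORD1A to SNORD1C, was at 185 ± 1.6 and 170 ± 5.5 FPKM (ratio 0.918, interval 0.894 to 0.942). SNHG3, host of the SNORA73 snoRNAs that act in cleavage of the ribosomal RNA precursor, had the highest listed level, at 1836 ± 40 and 1681 ± 43 FPKM (ratio 0.916, interval 0.882 to 0.9505). The sign of these differences depended on the scaling. With mitochondrial ribosomal RNA left out, SNHG3 was at 0.03, SNHG16 at 0.03 and GAS5 at 0.15, and GAS5 was also positive with equal medians (0.09). MIR17HG turned negative with TPM (−0.06), and the other 24 compared members kept their sign under these scalings.

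SNHG3 illustrates how gene models bear on these values. Its effective length was 81.6 bases, and the snoRNA SNORA73B within it was listed separately at 1397 ± 59 and 1354 ± 39 FPKM, about 3063 and 3151 fragments. SNORA73A, also within SNHG3, was not listed. How much of the SNHG3 value comes from snoRNA fragments was not tested. The coding gene RCC1, a chromatin-bound exchange factor for RAN, is annotated over the same stretch on the same strand. RCC1 was at 47.58 ± 2.2 and 20.01 ± 1.6 FPKM, 2.38-fold lower in shGRHL2, a difference of −1.21 against −0.13 for SNHG3. SNHG12, SNHG7 and SNHG9 also had effective lengths under 100 bases, from 47.2 to 92.2, and their FPKM are large for the number of fragments behind them. SNHG9 was at 27.3, 26.7, 23.3 and 6.63 FPKM in control runs, and at 29.0, 54.5, 11.0 and 69.3 FPKM in knockdown runs, with overlapping runs and about 51 and 106 fragments.

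Of the other snoRNA hosts, SNHG6, host of SNORD87, was at 127 ± 4.3 and 87.9 ± 6.7 FPKM with no overlap (ratio 0.690, interval 0.638 to 0.745). SNHG10, which carries a small RNA of Cajal bodies, was higher without overlap, at 4.55 ± 1.1 and 7.31 ± 1.3 FPKM (ratio 1.61, interval 1.31 to 1.95), while GLRX5 on the opposite strand was at 27.9 ± 1.5 and 28.0 ± 1.5 FPKM. SNHG5, host of the SNORD50 pair, was at 23.8 ± 4.6 and 31.3 ± 3.4 FPKM and SNHG8, host of SNORA24, at 117 ± 20 and 86.5 ± 9.5 FPKM, both with overlapping runs. SNHG7 was at 252 ± 48 and 329 ± 56 FPKM and SNHG18 at 2.11 ± 0.79 and 1.39 ± 0.19 FPKM, with overlap as well.

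More snoRNA hosts than microRNA hosts varied between runs beyond counting, which was not tested. For each gene, the CV over 4 runs was set beside the CV that counting its fragments would give. It exceeded 2 times the counting value in at least 1 library for 8 of 15 snoRNA hosts (SNHG1, SNHG7, SNHG8, SNHG9, SNHG11, SNHG12, SNHG15 and SNHG17) and for 1 of 13 microRNA hosts, MIR205HG in shGRHL2. This multiple is harder to exceed for genes with few fragments. The counting CV in shLuc was 40.6% for MIR503HG and 37.9% for MIR210HG, against 19.7% for SNHG18 and 3.34% for SNHG1. The counts of the host kinds are therefore not on an equal footing. SNHG1, known as the host of a run of box C/D snoRNAs, was at 172, 298, 275 and 242 FPKM in control runs, and at 193, 88.4, 371 and 155 FPKM in knockdown runs. The CV of SNHG1 in shGRHL2 was 59.8%, where counting would give 3.58%. SNHG15 was at 8.33, 48.2, 21.8 and 24.3 FPKM in control runs, and at 20.2, 22.5, 34.3 and 22.0 FPKM in knockdown runs, and SNHG12 at 66.9, 107, 159 and 159 FPKM in control runs, and at 167, 145, 204 and 159 FPKM in knockdown runs. For these 3 genes a difference between the libraries could not be told from the spread between runs. The table lists 34 transcripts for SNHG1, and a median of 9 for the snoRNA hosts and 7 for the microRNA hosts. GAS5, with 36, had a CV of 4.33% in shLuc and 3.06% in shGRHL2. The part of isoform assignment in this spread was not tested.

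**Figure D3:**
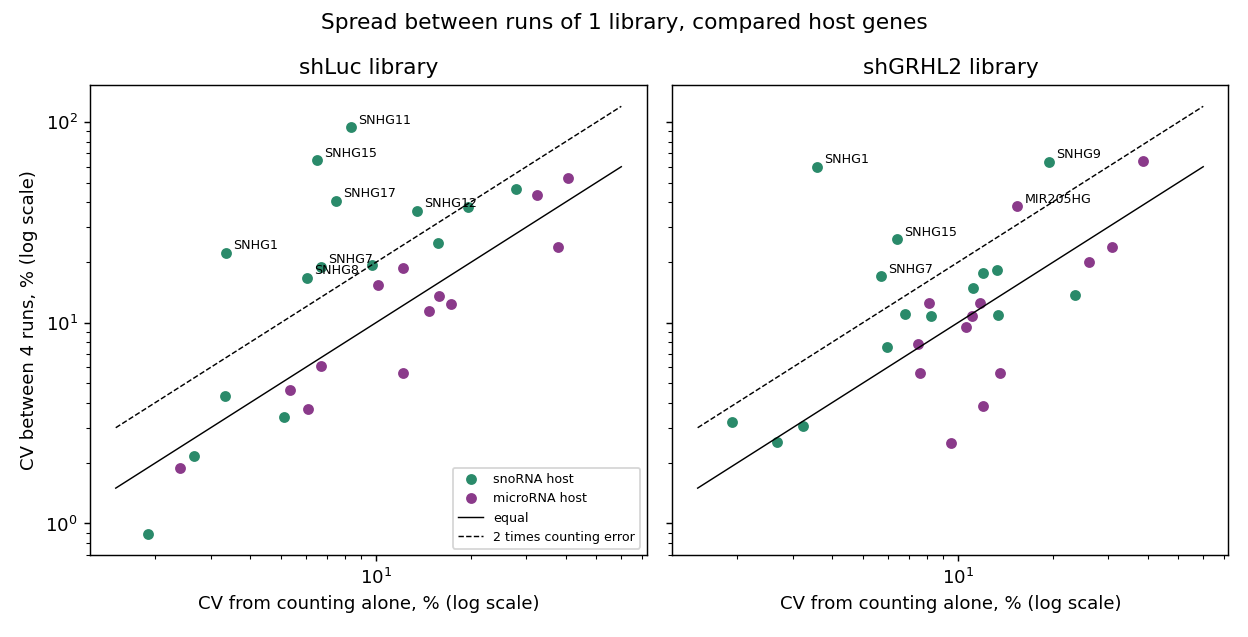
CV between the 4 runs of a library (vertical, %, log axis) against the CV expected from counting fragments alone (horizontal, %, log axis) for the 28 compared host genes, with shLuc on the left and shGRHL2 on the right. Genes above the dashed line, at 2 times the counting error, are named, and 8 of the 9 so named are snoRNA hosts.

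The small RNAs within the hosts were mostly beyond this measurement. Of 46 snoRNAs inside compared hosts, 26 were in the table, and 16 of these had an effective length of 0, for which the table lists 0 whatever the amount of RNA. Of 26 microRNA hairpins, 12 were in the table and 8 had an effective length of 0. Values above 0 were given for 6 snoRNAs (SNORA71A to SNORA71D, SNORA73B and SNORA24, the latter from about 1 fragment) and for 1 hairpin, MIR181A2, also from about 1 fragment.

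The remaining 13 members had means under 1 FPKM in both groups, though single runs of MIRLET7DHG (up to 2.57), MIR600HG (up to 1.12) and SNHG14 (up to 1.03) lay above it. Of these, 7 were listed at 0 in every run, H19, MEG3, CRNDE, MIR133BHG, MIR143HG, MIR381HG and MIR4500HG. H19 and MEG3 are imprinted genes with high fetal expression. The other 6 were above 0 in at least 1 run. Of these, MIR600HG (0.890 ± 0.16 and 0.823 ± 0.12 FPKM), SNHG14 (0.818 ± 0.16 and 0.650 ± 0.21) and MIRLET7DHG (0.803 ± 1.2 and 0.330 ± 0.66) were just under the filter, and MIR155HG was at 0.653 ± 0.18 and 0.845 ± 0.11. MIR497HG and MIR7-3HG were under 0.1 FPKM on average. MIR210HG, MIR181A2HG and SNHG18, at up to 1.44, 2.04 and 2.11 FPKM, were the lowest members inside it.

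Genes for proteins that make or use these small RNAs were set beside the background of 12.2% past the limit. Of 13 microRNA processing and effector genes, 0 were higher and 1 lower past the limit (median −0.15, beside −0.10 for all compared genes). AGO2, the slicing Argonaute, was at 26.6 ± 1.5 and 11.7 ± 1.8 FPKM, a difference of −1.13 that was −0.99 with mitochondrial ribosomal RNA left out of the scaling. DROSHA differed by −0.18, DGCR8 by 0.01 and DICER1 by −0.48. Of 13 snoRNP genes, among them the methyltransferase FBL (−0.10) and the pseudouridine synthase DKC1 (−0.27), 0 passed the limit in either direction (median −0.09).

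Of 22 protein-coding snoRNA hosts, mostly ribosomal proteins and translation factors, 0 passed the limit and the median was −0.18, close to the −0.12 of the non-coding snoRNA hosts. The coding hosts ranged from −0.46 to 0.21, and the non-coding ones from −1.51 to 0.82. These ranges come from genes unlike in level and in spread between runs. Every coding host had a mean of 150 FPKM or more, whereas SNHG18 was at 2.11 and 1.39 FPKM. SNHG17 and SNHG9, at the ends of the non-coding range, had a CV of 40.4% and 46.4% in shLuc.

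**Figure D4:**
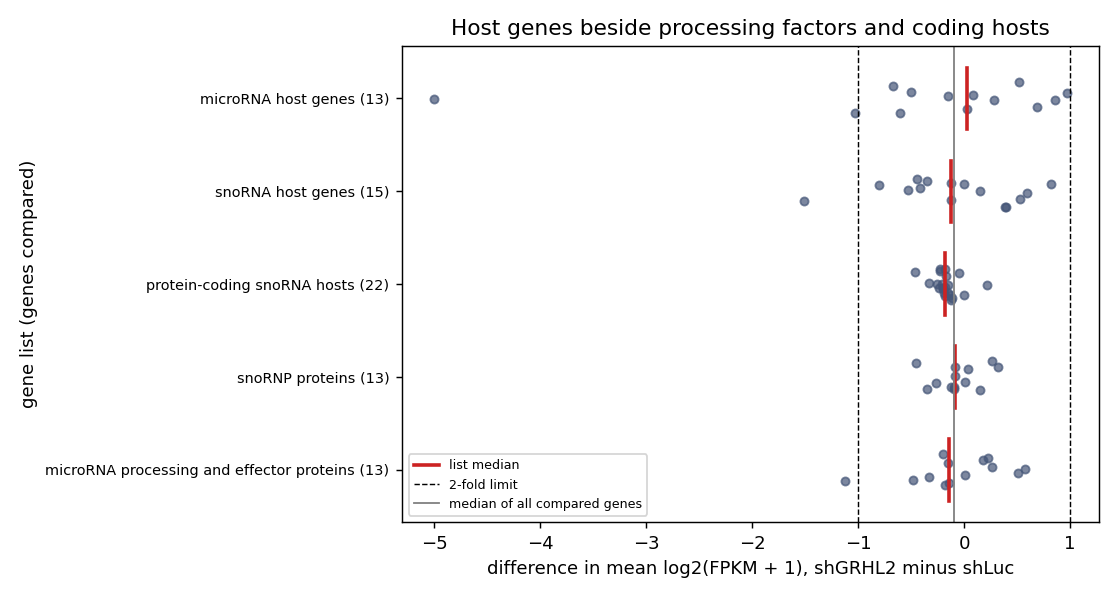
Differences of mean log2(FPKM + 1), shGRHL2 minus shLuc, for the compared genes of 5 lists (points, spread vertically at random), with list medians in red, the limit of 1 dashed and the median of all compared genes in grey. Coding snoRNA hosts (22 genes) and snoRNP proteins (13) lie within the limits, and the non-coding hosts spread more widely, with MIR205HG at −5.00.

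The loci of host genes often hold a second gene. Of the 28 compared hosts, 14 overlapped at least 1 compared coding gene, in 17 pairs, 4 on the same strand and 13 on the opposite one. The kit is stranded, but whether counting used the strand is not given in the sources used here, so reads of antisense partners may not be separated. Of the partners, 4 of 17 passed the limit, beside 12.2% of all compared genes. They were DPYD and RCC1 above, TRNAU1AP opposite SNHG12 (23.1 ± 1.4 and 9.65 ± 0.69 FPKM, difference −1.18), and FAM69B opposite SNHG7 (15.6 ± 0.46 and 37.4 ± 2.0 FPKM, difference 1.204). SNHG12 was at 0.52 and SNHG7 at 0.39 in difference, both with overlapping runs. MIR205HG, SNHG17 and SNHG11 had no coding partner in the annotation.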

How the data were processed

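Total RNA of OVCA429 shLuc and shGRHL2 cells was sequenced in 8 samples. The authors demultiplexed with bcl2fastq 2.17.1.14, aligned to hg19 with STAR 2.4.2a and quantified with RSEM 1.2.25 on Gencode v19; the deposited values are FPKM per gene, 1 column per sample. Other deposited columns hold gene length and effective length, from an unnamed sample.

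The members, gene lists and rules were chosen with earlier results of these data known. FPKM were compared as means of log2(FPKM + 1) for genes at a mean of 1 FPKM or more in at least 1 group, with a limit of 1 and no test, since each group counts as 1 library. All such members are named, with listed genes past the limit. The result of 1 further gene list is not reported here. Fragments are FPKM times effective length times the depth, which was read from low values: 82.7% to 86.0% of them came within 0.1 of a whole fragment. Intervals are exact binomial (95%). The scripts were tested on simulated data. Alternatives were the pseudocount, filter, scaling and left-out runs. GRCh37 positions come from Gencode v44, and sequences and small RNA hosts from RefSeq (41 of 41 members matched). Python 3.11.15 and scipy were used.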

Additional observations from a re-analysis of the deposited data

Results flagged for a closer look

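In 3 of 58 groups of 4 runs (28 compared host genes and GRHL2 in both libraries), 1 run stood apart by Dixon's ratio of its gap to the range. Chance flags about 1 in 20 groups, or 2.9 here. SNHG11 in shGRHL2 run 1 was at 6.51 FPKM, with the other runs at 4.58 to 4.71. SNHG15 in shGRHL2 run 3 was at 34.3 FPKM, with the others at 20.2 to 22.5. GRHL2 in shGRHL2 run 3 was at 1.17 FPKM, with the others at 0.10 to 0.15.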

How the results depend on the processing

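The count of host genes lower past the limit was 3, and 2 to 4 over the left-out runs and other settings, with MIR205HG and SNHG17 among them each time. The count of higher genes, 0, was 2 with a pseudocount of 0.1 or with mitochondrial ribosomal RNA left out of the scaling (MIR137HG and MIR503HG), 1 with equal medians, and 0 to 1 over the left-out runs (MIR137HG, or SNHG9 without shGRHL2 run 3). The median of the snoRNA hosts, −0.12, was −0.23 with TPM, −0.028 with equal medians, 0.03 with mitochondrial ribosomal RNA left out, −0.35 with effective lengths of 200 bases or more (a filter chosen after seeing the data) and −0.13 to −0.11 over left-out runs. The median of the microRNA hosts, 0.02, was −0.61 with a filter at 5 FPKM, where fewer genes remain, and −0.11 to 0.07 over left-out runs. For other shifts the cause was not tested. Of 409 values of single host genes under the alternatives, 389 moved by less than the spread between runs and none of the called ones changed sign. Counting limits MIR503HG, MIR210HG and MIR181A2HG, with 24 to 59 fragments per library. No paired analysis was possible because the differences come from no test and the replicate numbers mark runs of 1 library.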
